A study of Mus musculus with 2 samples.

Results

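Border macrophages are the macrophages of the meninges, the perivascular spaces and the choroid plexus, as opposed to microglia, the macrophages of the brain tissue itself. They were looked for in 2 single-cell libraries, each made from mouse cerebral cortex including the meninges, dissociated and enriched by magnetic sorting for CD140a, the protein encoded by Pdgfra. One library came from N-PRα-KO mice, genotype Nestin-Cre;Pdgfraflox/flox, and the other from WT mice of the C57BL/6J strain. Single cells were captured with BD Rhapsody cartridges and their whole transcriptomes read. Age, sex and how many animals were pooled are missing from the labels, and their part in any difference was not tested. Nestin-Cre uses regulatory elements of nestin, which is active in neural progenitors, whereas macrophages of the brain borders arise from another lineage. The macrophages described here came through a sort for PDGFRα, so their number does not measure their number in the tissue.

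A cell was taken as a border macrophage when it had at least 300 detected genes, at most 25% mitochondrial UMIs (unique molecules counted), and at least 3 UMIs and 0.15% of its UMIs from Mrc1, Pf4, F13a1, Ms4a7 and Cbr2 together. Those genes also had to reach at least as many UMIs as the microglial genes P2ry12, Siglech and Cx3cr1, with fibroblast collagen UMIs under 0.4% and endothelial UMIs (Cldn5, Flt1, Ly6c1) under 0.2%. The rule chose 150 members of 14265 filtered cells. The N-PRα-KO library gave 101 of 4196 (2.41%, exact 95% interval 1.96 to 2.92%) and the WT library 49 of 10069 (0.487%, 0.360 to 0.643%). Microglia-rule cells were chosen by the same filter with the microglial genes in the lead. Members made up 14.5% of the 695 members and microglia-rule cells of the N-PRα-KO library and 6.89% of the 711 in the WT library. There was 1 library per genotype, so no test between genotypes was made, every interval covers counting error only, and genotype cannot be told apart from library.

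Border macrophages settle in the brain's coverings early in life, share the growth factor receptor Csf1r with microglia, and are known for taking up material from blood and cerebrospinal fluid. They carry scavenger receptors and sugar-binding lectins such as Mrc1 (the mannose receptor CD206), Cd163 (the haemoglobin scavenger receptor) and Lyve1 (a hyaluronan receptor). Subsets are usually told apart by Lyve1 on one side and by class II antigen presentation genes or Ccr2 on the other.

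The members held 746705 UMIs in the N-PRα-KO library and 200312 in the WT library. The median cell had 6415 UMIs, 2569 genes and 12.7% mitochondrial UMIs among N-PRα-KO members and 3588 UMIs, 1632 genes and 11.9% mitochondrial UMIs among WT members. A gene's level is its UMIs summed over the members and scaled to 1000000 (CPM), so that 1 UMI was worth 1.34 CPM in N-PRα-KO members and 4.99 CPM in WT members. A log2 ratio between the libraries is N-PRα-KO over WT, with counts under 3 set to 3. Where a gene with few UMIs in a library is given as a fold with an interval, the fold uses the counts as they stand, and a fold written as at least some value sets a count of 0 to 3. These ratios followed the GC content of the last 500 bases of each gene's transcript. The quintile of tested genes richest in GC there had a median of 0.96 and the poorest quintile one of -0.78. The ratio with that trend removed, or the same ratio in microglia-rule cells, therefore stands beside the main results. Cell index values were shared by the libraries in 105 cases, none of them between members. Pdgfra, the floxed gene, was at 255 CPM in N-PRα-KO and 2507 CPM in WT cells outside both macrophage rules, and at 45.5 CPM in N-PRα-KO members and 305 CPM in WT members.

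The WT members matched their name, whereas part of the N-PRα-KO members did not. With Cbr2 left out of the rule, 84 of 101 N-PRα-KO members and all 49 WT members still passed. Of the 17 N-PRα-KO cells that failed, 15 had no UMI of Mrc1, Pf4, F13a1 or Ms4a7, 1 had 4, and 1 had 20. Genes shared by macrophages and microglia (18 genes, among them Csf1r, C1qa and Tyrobp) made up at most 0.170% of the UMIs in 16 of these cells. The remaining cell, the one with 20, was at 2.2% and had 22 UMIs of the 3 microglial genes. The shared genes made up 1.35 to 3.83% in the 84 cells that passed and 0.382 to 2.58% in WT members. The 16 cells held 13 to 754 UMIs each of 4 genes of the olfactory epithelium (Cyp2g1, Cyp2a5, Sec14l3 and Gstm1), picked after the data were seen, where the 84 cells held at most 8. Ugt2a1, picked with them, was not among the genes counted in either library. Omp, the olfactory marker protein of nasal sensory neurons, was at 2997 CPM in the 17 cells, 12.01 CPM in the 84 and 0 CPM in WT members. The 17 cells are given no cell type here. They carried 21.9% of the N-PRα-KO members' UMIs, so main values are given for all members and again for the 84 cells, whose smaller total alone puts a log2 ratio 0.36 higher.

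**Figure D1:**
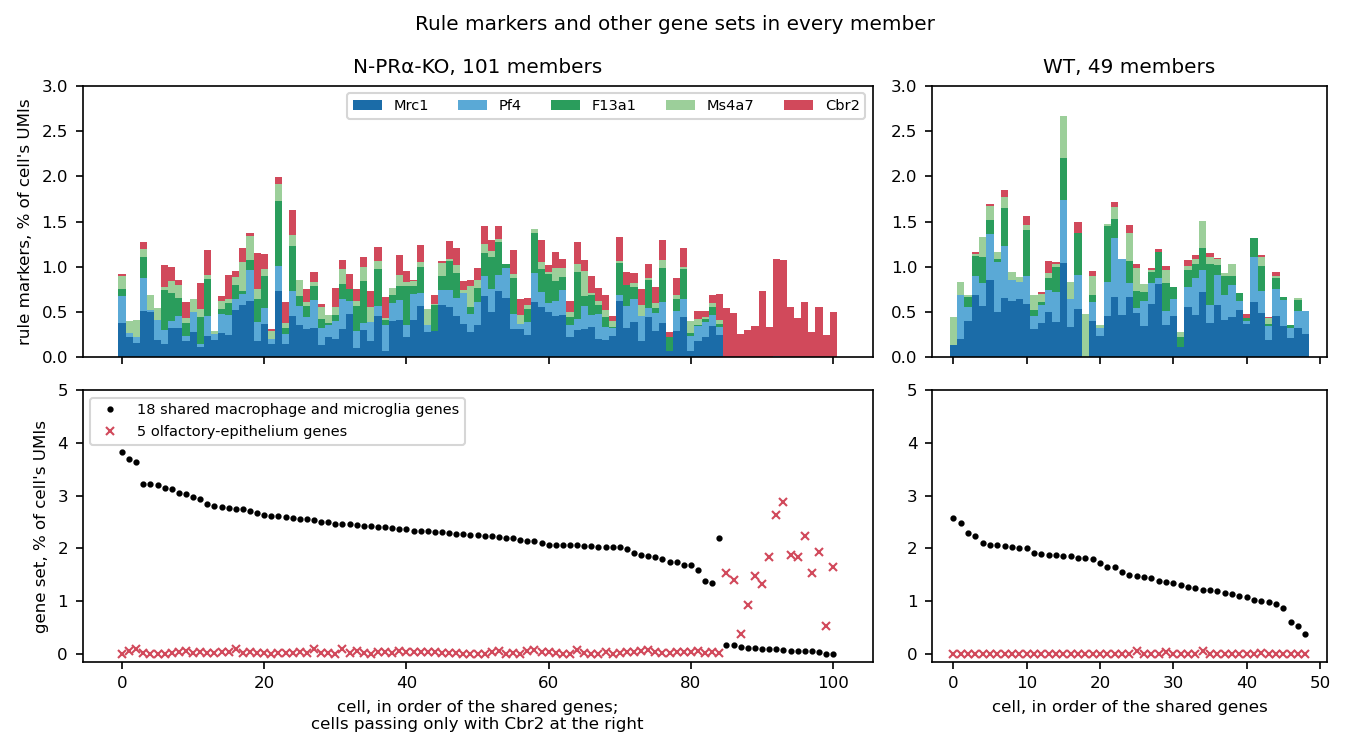
Top, the 5 rule markers as a percentage of each member's UMIs, stacked by gene, with N-PRα-KO members at the left and WT members at the right. Bottom, the 18 genes shared by macrophages and microglia (points) and 4 olfactory-epithelium genes (crosses) in the same cells. The key says 5 because it includes Ugt2a1, which was not among the genes counted. The 17 N-PRα-KO cells that pass only through Cbr2 form the right end of the left panels, and 16 of them have the olfactory genes and almost none of the shared genes.

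The genes that chose the members are a description and not a finding. Mrc1 stood at 2717 CPM (2029 UMIs) in N-PRα-KO members and 4368 CPM (875 UMIs) in WT members. Pf4, a chemokine stored in platelets and made by these macrophages, stood at 1402 CPM (1047 UMIs) in N-PRα-KO members and 2411 CPM (483 UMIs) in WT members. F13a1, a clotting transglutaminase, was at 1509 CPM (1127 UMIs) in N-PRα-KO members and 1867 CPM (374 UMIs) in WT members. Mrc1 and Pf4 were lower in N-PRα-KO members with and without the 17 cells, while F13a1 (-0.31 for all members, 0.05 for the 84 cells) and Ms4a7 (-0.25 and 0.10) had log2 ratios on both sides of 0. Ms4a7, a membrane protein of the MS4A family, was at 686 CPM (512 UMIs) in N-PRα-KO members and 814 CPM (163 UMIs) in WT members. Cbr2, a carbonyl reductase, was at 2310.2 CPM (1725 UMIs) in N-PRα-KO members and 245 CPM (49 UMIs) in WT members, with 1313 CPM in the 84 cells. Of the 5, Cbr2 was higher in the N-PRα-KO library with and without the 17 cells. The rule markers ran from 0.275 to 1.99% of a cell's UMIs in the 84 cells and from 0.284 to 2.67% in WT members. The lowest ratio of rule markers to microglial genes inside the rule was 1.12 in the N-PRα-KO library and 1.5 in the WT library, and the highest just outside it was 0.864 among 9 N-PRα-KO cells and 0.462 among 27 WT cells. Another 17 N-PRα-KO and 4 WT cells met the marker limits but not the fibroblast or endothelial ones.

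Set against microglia-rule cells of the same library, the members were marked by scavenger receptors and lectins that the rule had not named. Of 14 such genes at 100 CPM or more in members or microglia-rule cells of both libraries, 12 were at least 2-fold higher in members in both, where 7.34% of all 1567 genes tested were. Their median log2 ratio, members over microglia-rule cells, was 5.71 in the N-PRα-KO library and 6.23 in the WT library. Genes that vary with the rule markers were in part fixed by the choice of cells, so these values are a description. Lyve1 was at 1122 CPM in N-PRα-KO members against 2.03 CPM in N-PRα-KO microglia-rule cells, and 3439.6 CPM in WT members against 0.474 CPM in WT microglia-rule cells. Cd163 was at 504 CPM in N-PRα-KO members against 1.74 CPM in N-PRα-KO microglia-rule cells, and 239.6 CPM in WT members against 0 CPM in WT microglia-rule cells. Both were close to 0 in microglia-rule cells. Dab2, an adaptor for endocytosis, was at 2066 CPM in N-PRα-KO members against 82.8 CPM in N-PRα-KO microglia-rule cells, and 4288 CPM in WT members against 191 CPM in WT microglia-rule cells. Cd36, a fatty acid and lipoprotein receptor, was at 451 CPM in N-PRα-KO members against 5.23 CPM in N-PRα-KO microglia-rule cells, and 1228 CPM in WT members against 5.69 CPM in WT microglia-rule cells. Folr2, a folate receptor used to mark resident macrophages, was at 279 CPM in N-PRα-KO members against 2.03 CPM in N-PRα-KO microglia-rule cells, and 209.7 CPM in WT members against 5.69 CPM in WT microglia-rule cells.

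The log2 ratio of members over microglia-rule cells was 4.99 in the N-PRα-KO library and 6.55 in the WT library for Msr1, a receptor for modified lipoproteins. It was 2.86 in the N-PRα-KO library and 3.08 in the WT library for Stab1, a clearance receptor, 2.97 in the N-PRα-KO library and 6.12 in the WT library for Colec12, a scavenger collectin, and 7.06 in the N-PRα-KO library and 6.35 in the WT library for Fcna, a ficolin. The lectins Mgl2 and Clec10a, which bind galactose-type sugars, stood at 581 and 183 CPM in N-PRα-KO members and 169.7 and 115 CPM in WT members, and neither passed 3.78 CPM in microglia-rule cells of either library. Clec4a1 was also far higher in members, at 3.88 in the N-PRα-KO library and 3.09 in the WT library. The 2 exceptions were close relatives of it, Clec4a2, at 0.87 in the N-PRα-KO library and 0.92 in the WT library, and Clec4a3, at 1.07 in the N-PRα-KO library and 0.71 in the WT library.

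Outside the scavenger list, the genes furthest above microglia-rule cells in both libraries were Ifi207, an interferon-inducible nuclear protein (log2 ratio 6.92 in the N-PRα-KO library and 6.61 in the WT library), Cybb, the catalytic chain of the phagocyte oxidase (5.64 in the N-PRα-KO library and 6.40 in the WT library), Igf1, an insulin-like growth factor (4.92 in the N-PRα-KO library and 4.02 in the WT library), and Itsn1, an endocytic scaffold (4.01 in the N-PRα-KO library and 4.48 in the WT library). With the 84 cells in place of all N-PRα-KO members, Mndal, another interferon-inducible gene, and the chemokine Ccl7 took the places of Igf1 and Itsn1 among the highest 10. In the other direction, 10 of 12 microglial genes were at least 2-fold lower in members in both libraries, where 7.91% of all genes tested were. Sall1, a transcription factor of microglial identity, was at 18.7 CPM in N-PRα-KO members against 594 CPM in N-PRα-KO microglia-rule cells, and 9.98 CPM in WT members against 1018 CPM in WT microglia-rule cells. It had not entered the rule. Sparc, a secreted matrix-binding protein, was at 703 CPM in N-PRα-KO members against 9891 CPM in N-PRα-KO microglia-rule cells, and 94.9 CPM in WT members against 3692 CPM in WT microglia-rule cells. Slc2a5, a fructose transporter, was at 12.1 CPM in N-PRα-KO members against 276 CPM in N-PRα-KO microglia-rule cells, and 4.99 CPM in WT members against 257 CPM in WT microglia-rule cells, so Sall1 and Slc2a5 were close to absent from members while Sparc was lower but present. Olfml3, a secreted glycoprotein, had log2 ratios of -3.67 in the N-PRα-KO library and -5.03 in the WT library. Plxdc2, Parvg, F11r and Gtf2h2 were also among the lowest 10, and for the 84 cells Adgrg1 was.

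**Figure D2:**
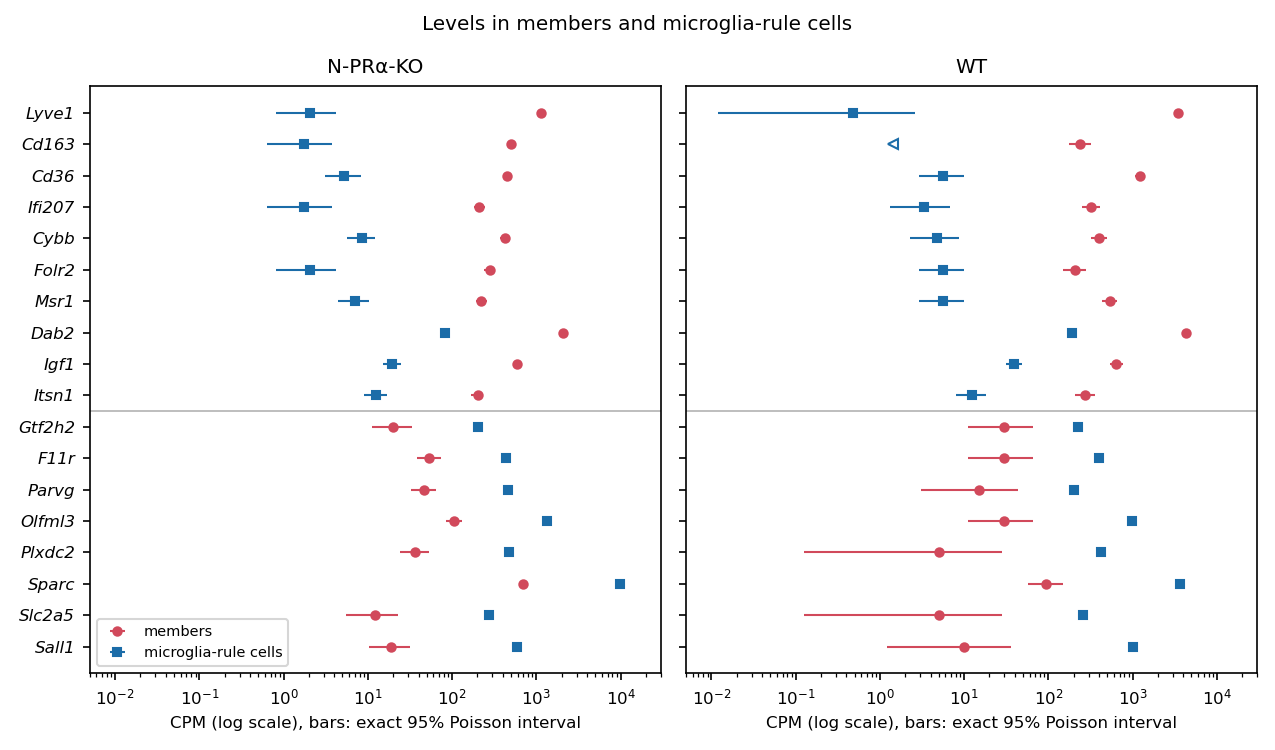
Level in CPM on a log axis of the 10 genes furthest above (top) and 8 of those furthest below (bottom) microglia-rule cells, in members (circles) and microglia-rule cells (squares) of the N-PRα-KO library (left) and the WT library (right), with exact 95% Poisson intervals; an open triangle stands at the value of 3 UMIs where none was seen. The circles lie right of the squares for every gene of the top block and left of them for every gene of the bottom block, in both libraries.

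The remaining microglial genes were lower in members but not absent. Trem2, a lipid-sensing receptor, had log2 ratios of -1.56 in the N-PRα-KO library and -1.29 in the WT library, Gpr34, a lysophospholipid receptor, -2.28 in the N-PRα-KO library and -2.81 in the WT library, and P2ry13, a nucleotide receptor, -2.90 in the N-PRα-KO library and -1.98 in the WT library. Golm1 had -2.48 in the N-PRα-KO library and -2.43 in the WT library, and Crybb1 had 65 UMIs in N-PRα-KO and 2 in WT members against 2076 in N-PRα-KO and 454 in WT microglia-rule cells. The 2 microglial genes that did not reach 2-fold in both libraries were Fcrls, at -1.11 in the N-PRα-KO library and -0.81 in the WT library, and Cd33, a sialic acid-binding receptor, at -0.65 in the N-PRα-KO library and -0.41 in the WT library. Tmem119 and Selplg had 21 and 27 UMIs in N-PRα-KO members and none in WT members, where 0 UMIs allow up to 14.98 CPM. The median log2 ratio of the 17 genes shared by both kinds of macrophage that were tested was -0.29 in the N-PRα-KO library and -0.17 in the WT library, and 0 of them were at least 2-fold higher and 3 at least 2-fold lower in members in both, where 7.34% of all genes tested were higher and 7.91% lower.

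Listed class II antigen presentation genes other than Cd74 were all under 100 CPM in the members. Cd74, the invariant chain, was at 139 CPM (104 UMIs) in N-PRα-KO members and 39.9 CPM (8 UMIs) in WT members, against 31.1 CPM in N-PRα-KO and 39.8 CPM in WT microglia-rule cells, and was the only gene of 10 on that list to reach 100 CPM. Thinned to 1500 UMIs, the share of cells with a Cd74 UMI was 17.9% of the 84 N-PRα-KO cells and 4.76% of WT members. In microglia-rule cells it was 2.70% on the N-PRα-KO side and 5.29% on the WT side. Unthinned, it was 44.0% of the 84 cells and 12.2% of WT members. H2-Aa and H2-Ab1 had 2 UMIs each in N-PRα-KO members and none in WT members. H2-Eb1 and the monocyte receptor Ccr2 had none in either, which allows up to 4.02 CPM in N-PRα-KO and 14.98 CPM in WT members. Markers of other immune cells were also near 0: 8 monocyte genes summed to 21.4 CPM in N-PRα-KO and 0 CPM in WT members, and 10 lymphocyte genes to 18.7 CPM in N-PRα-KO and 4.99 CPM in WT members. Neutrophil genes (8) summed to 2.68 CPM in N-PRα-KO and 0 CPM in WT members, and dendritic cell genes (8) to 13.4 CPM in N-PRα-KO and 19.97 CPM in WT members. RNA of the surrounding cells was present and differed between the libraries. Genes of oligodendrocyte precursors (8) summed to 366 CPM in N-PRα-KO and 1987 CPM in WT members, and to 210.0 CPM in N-PRα-KO and 1457 CPM in WT microglia-rule cells. Choroid plexus genes (4) summed to 1572 CPM in N-PRα-KO and 205 CPM in WT members, and fibroblast genes (7) to 818 CPM in N-PRα-KO and 219.7 CPM in WT members. Among single genes of these cells, Ttr, the choroid plexus transport protein, was at 1481 CPM in N-PRα-KO and 109.8 CPM in WT members, Ptprz1, a receptor of oligodendrocyte precursors, at 104 CPM in N-PRα-KO and 1098 CPM in WT members, and Rgs5, a gene of mural cells, at 396 CPM in N-PRα-KO and 49.9 CPM in WT members. The part of this RNA in the results below was not tested.

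Between the libraries, 362 of 2239 genes at 100 CPM or more in either were at least 2-fold higher in N-PRα-KO members (16.2%) and 385 at least 2-fold lower (17.2%). By any amount, 870 were higher (38.9%) and 1369 lower (61.1%). For the 84 cells the shares of genes past 2-fold were 16.1% higher and 14.4% lower, of 2237 genes. The median log2 ratio of all genes tested was -0.28 (-0.21 for the 84 cells and -0.17 for the same genes in microglia-rule cells).

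The scavenger receptors and lectins stood on both sides between the libraries. Of that list, 14 of 22 genes reached 100 CPM, and 6 of these stood higher (2 by at least 2-fold) and 8 lower (4 by at least 2-fold) in N-PRα-KO members, where 16.2% of all genes tested were at least 2-fold higher and 17.2% at least 2-fold lower. Their median was -0.13 (0.27 for the 84 cells, -0.22 with the GC trend removed), against -0.01 for the same genes in microglia-rule cells. Lyve1 was at 1122 CPM (838 UMIs) in N-PRα-KO members and 3439.6 CPM (689 UMIs) in WT members, a log2 ratio of -1.62 (95% interval -1.76 to -1.47) that was -1.26 for the 84 cells, and -0.92 with the GC trend removed. Thinned to 1500 UMIs per cell, which leaves out 7 shallower WT members, the expected number of cells with a Lyve1 UMI was 52 of 101 (51.5%, 95% interval 41.3 to 61.6%) N-PRα-KO members and 33 of 42 (78.6%, 95% interval 63.2 to 89.7%) WT members. Without thinning the shares were 66.3% of N-PRα-KO and 83.7% of WT members. For the 84 cells they were 60.7% thinned (95% interval 49.5 to 71.2%) and 77.4% unthinned. The thinned interval of the 84 cells overlapped that of WT members, whereas that of all N-PRα-KO members did not. In cells outside both macrophage rules the thinned share was 0.694% in the N-PRα-KO library and 0.210% in the WT library, so most members carried Lyve1 far above the level of free RNA. Cd36 was at 451 CPM in N-PRα-KO and 1228 CPM in WT members, a log2 ratio of -1.44 (-1.18 for the 84 cells). Msr1 was at 222 CPM in N-PRα-KO and 534 CPM in WT members, a log2 ratio of -1.26 (-0.91 for the 84 cells), and Dab2 at 2066 CPM in N-PRα-KO and 4288 CPM in WT members, a log2 ratio of -1.05 (-0.72 for the 84 cells). Lyve1, Cd36, Msr1 and Dab2 were thus lower among N-PRα-KO cells, taking all members or the 84.

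Cd163 and Mgl2 stood on the other side. Cd163 was at 504 CPM (376 UMIs) in N-PRα-KO members and 239.6 CPM (48 UMIs) in WT members, a log2 ratio of 1.07 (95% interval 0.64 to 1.54) that was 1.43 for the 84 cells. The expected share of cells with a Cd163 UMI after thinning was 31.7% of all and 38.1% of the 84 N-PRα-KO cells, and 21.4% of WT members, and unthinned 46.5% of all N-PRα-KO and 38.8% of WT members. In cells outside both macrophage rules the thinned share was 0.376% on the N-PRα-KO side and 0.0117% on the WT side. Mgl2 was at 581 CPM (434 UMIs) in N-PRα-KO members and 169.7 CPM (34 UMIs) in WT members, a log2 ratio of 1.78 (95% interval 1.27 to 2.32) that was 2.13 for the 84 cells. Of its 434 UMIs in the 84 cells, the 8 cells with the most Mgl2 held 73.3%. The 8 cells rich in Retnla, which are chosen by and described with that gene, held 231 of the 434. The other 76 cells were at 389.5 CPM. Clec4n, a lectin that binds fungal sugars, reached 100 CPM in the 84 cells alone, at 103 CPM, against 19.97 CPM in WT members. The log2 ratio was 0.81 for Fcna and 0.68 for Clec10a, and Clec4a1, Clec4a2, Clec4a3 and Colec12 ran from -0.95 to -0.09. Stab1 and Folr2 changed sides with the GC trend removed, from 0.53 to -0.70 for Stab1 and from 0.41 to -0.34 for Folr2. Timd4, a phosphatidylserine receptor of long-lived resident macrophages, was under 100 CPM. It had 7 of 746705 UMIs in N-PRα-KO and 13 of 200312 UMIs in WT members.

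Chemokines and cytokines had the lowest median of the gene lists with 6 or more genes tested. Of the listed chemokines and cytokines, 12 of 21 genes reached 100 CPM, and 1 of these stood higher (1 by at least 2-fold) and 11 lower (10 by at least 2-fold) in N-PRα-KO members, where 17.2% of all genes tested were at least 2-fold lower. Their median log2 ratio was -2.49 (-1.97 for the 84 cells, -2.37 with the GC trend removed), against -2.37 for the same genes in microglia-rule cells. Ccl2, the main attractant of monocytes, was at 162 CPM (121 UMIs) in N-PRα-KO members and 1752 CPM (351 UMIs) in WT members, a log2 ratio of -3.43 (95% interval -3.75 to -3.13) that was -3.08 for the 84 cells. Ccl7, its neighbour with a similar role, was at 163 CPM (122 UMIs) in N-PRα-KO members and 1563 CPM (313 UMIs) in WT members, a log2 ratio of -3.26 (95% interval -3.57 to -2.95) that was -2.90 for the 84 cells. All 3 measures, all members, the 84 cells and the ratio with the GC trend removed (-2.83 for Ccl2 and -2.71 for Ccl7), had these genes lower in N-PRα-KO members. Cxcl2, a neutrophil attractant, was at 114 CPM (85 UMIs) in N-PRα-KO members and 1383 CPM (277 UMIs) in WT members, a log2 ratio of -3.60 (95% interval -3.97 to -3.25) that was -3.25 for the 84 cells. Thinned to 1500 UMIs, the expected number of cells with a Ccl2 UMI was 13 of 101 (12.9%, 95% interval 7.04 to 21%) N-PRα-KO members and 28 of 42 (66.7%, 95% interval 50.5 to 80.4%) WT members, and without thinning the shares were 22.8% of N-PRα-KO and 75.5% of WT members. In cells outside both macrophage rules the thinned share was 0.549% on the N-PRα-KO side and 0.571% on the WT side, so the members with Ccl2 stood far above free RNA in both.

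Among the genes ranked at 200 CPM or more, Il1a and Cxcl10 had the lowest ratios. Il1a, an alarm cytokine, was at 9.37 CPM (7 UMIs) in N-PRα-KO members and 219.7 CPM (44 UMIs) in WT members. Cxcl10, an interferon-induced chemokine, was at 17.4 CPM (13 UMIs) in N-PRα-KO members and 369 CPM (74 UMIs) in WT members. The log2 ratio was -2.65 for Ccl4, -1.85 for Ccl12 and -1.32 for Ccl3, all of them chemokines, -2.33 for the inflammatory cytokine Il1b and -1.68 for Tnf. Of the regulators of the NF-κB pathway, Tnfaip3 had -3.66 and Nfkbiz -3.16, and of its subunits Rel had -1.87 and Nfkb1 -1.27. Nlrp3, the inflammasome sensor, had -3.39, and C5ar1, the receptor for complement C5a, -3.06. Ifrd1 completed the lowest 10 at this level, at -3.01, and for the 84 cells Phlda1 (-2.92) replaced C5ar1. Plau, the urokinase plasminogen activator, was at 181 CPM in N-PRα-KO and 1153 CPM in WT members, a log2 ratio of -2.67 (-2.35 for the 84 cells). Bmp2, a growth factor of the bone morphogenetic family, was at 119 CPM in N-PRα-KO and 704 CPM in WT members, a log2 ratio of -2.56 (-2.22 for the 84 cells).

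Most of these genes were lower in N-PRα-KO microglia-rule cells too. The log2 ratio there was -4.04 for Ccl2, -5.86 for Ccl7, -4.98 for Cxcl2, -4.35 for Il1a and -3.94 for Nfkbiz. Over the 12 listed genes, the ratio in members minus that in microglia-rule cells had a median of 0.28 (0.55 for the 84 cells). For Ccl7 this difference was 2.96 in the 84 cells (1.49 to 4.42), resting on 4 UMIs in N-PRα-KO and 142 UMIs in WT microglia-rule cells. Bmp2, by contrast, was scarce in microglia-rule cells, at 4.36 CPM on the N-PRα-KO side and 5.69 CPM on the WT side, with a log2 ratio of -0.39.

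**Figure D3:**
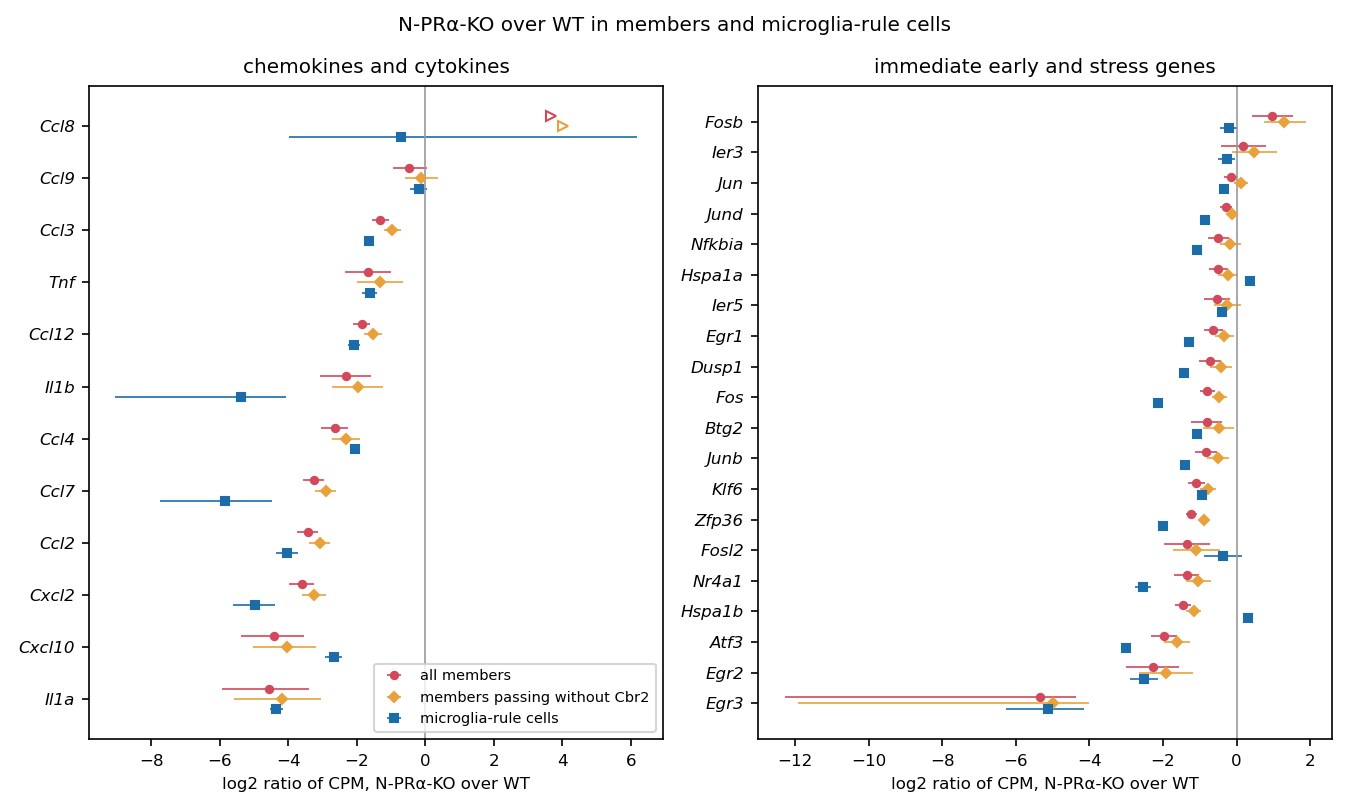
Log2 ratio of CPM, N-PRα-KO over WT, of listed genes at 100 CPM or more in members (left, chemokines and cytokines; right, immediate early and stress genes), for all members (circles), members passing without Cbr2 (diamonds) and microglia-rule cells (squares), with exact 95% intervals that cover counting error only. Counts under 3 were set to 3 for the points, and an open triangle stands where WT members had no UMI; the chemokines drawn other than Ccl8 lie left of 0 in members and in microglia-rule cells.

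Ccl8, an attractant of monocytes and other leukocytes, was the 1 listed gene tested that stood higher over all members. For the 84 cells 13 listed genes reached 100 CPM and 2 stood higher, Ccl8 and the eosinophil attractant Ccl24, for which the log2 ratio was 0.61. Ccl8 had 142 UMIs in N-PRα-KO members (190.2 CPM) and none in WT members, which is at least 12.7-fold higher against 3 UMIs over the WT members, and at least 16.3-fold for the 84 cells. Of the 142 Ccl8 UMIs of the 84 cells, the 8 cells with the most Ccl8 held 89.4%. The 8 cells rich in Retnla, chosen by that gene instead, held 90 of the 142, and outside them the level was 99.8 CPM. It was at 0.581 CPM in N-PRα-KO and 0.474 CPM in WT microglia-rule cells. Ccl8 and the lower Ccl2, Ccl7 and Ccl12 are neighbours on chromosome 11 of GRCm38, with Ccl11 among them, over 81.2 kb. In the RefSeq annotation Ccl2 spans chr11:82035577-82037452, Ccl7 chr11:82045712-82047525, Ccl12 chr11:82101845-82103399 and Ccl8 chr11:82115185-82116799. Retnla, a secreted protein of alternatively activated macrophages also known as Fizz1, had the highest ratio of the genes ranked at 200 CPM or more. It had 1476 UMIs in N-PRα-KO members (1977 CPM) and 2 in WT members (9.98 CPM), a ratio of 198-fold (95% interval 54.7 to 1636), which was 254-fold (95% interval 70.1 to 2096) for the 84 cells. Cells outside both macrophage rules were at 24.2 CPM on the N-PRα-KO side and 0.0789 CPM on the WT side.

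The 250 bases before the RefSeq start of Ccl12 and Ccl8 are printed because these neighbours stood on opposite sides between the libraries, and those of Cxcl2 and Retnla because they were among the lowest and the highest genes. They are from RefSeq on GRCm38.p6, 5′ to 3′, and entries for Ccl2 and Ccl7 were not used here. Capitals mark matches to TATAAA (the TATA box), an NF-κB motif (GGGA, any base, TTTCC) or AGGAAGT (a PU.1 motif) on either strand, motifs chosen after the matches had been seen.
Ccl12, chr11:82101595-82101844, plus strand: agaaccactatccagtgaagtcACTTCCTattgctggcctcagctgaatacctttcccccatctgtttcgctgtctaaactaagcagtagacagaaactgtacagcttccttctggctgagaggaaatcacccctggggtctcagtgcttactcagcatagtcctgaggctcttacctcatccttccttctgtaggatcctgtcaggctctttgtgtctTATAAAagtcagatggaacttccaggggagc
Ccl8, chr11:82114935-82115184, plus strand: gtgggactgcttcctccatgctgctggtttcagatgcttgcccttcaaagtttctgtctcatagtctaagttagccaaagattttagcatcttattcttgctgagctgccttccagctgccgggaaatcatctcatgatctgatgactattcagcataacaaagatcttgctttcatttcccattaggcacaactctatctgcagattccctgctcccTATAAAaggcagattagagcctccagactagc
Cxcl2, chr5:90903649-90903898, plus strand: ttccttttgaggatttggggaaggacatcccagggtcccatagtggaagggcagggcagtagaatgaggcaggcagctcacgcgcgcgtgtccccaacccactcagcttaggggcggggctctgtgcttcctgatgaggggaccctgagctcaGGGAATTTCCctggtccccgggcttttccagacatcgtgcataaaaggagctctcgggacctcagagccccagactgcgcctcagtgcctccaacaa
Retnla, chr16:48842359-48842608, plus strand: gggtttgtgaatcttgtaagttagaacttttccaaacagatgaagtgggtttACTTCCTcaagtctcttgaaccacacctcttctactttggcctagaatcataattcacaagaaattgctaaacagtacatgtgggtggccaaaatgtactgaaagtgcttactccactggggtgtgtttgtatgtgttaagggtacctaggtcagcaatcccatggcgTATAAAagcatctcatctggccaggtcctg
TATAAA was in the same window of 12.4% of 32851 promoters, the NF-κB motif in 0.356% and AGGAAGT in 7.69%. In these 4 windows TATAAA was found in Ccl12, Ccl8 and Retnla, AGGAAGT on the reverse strand in Ccl12 and Retnla, and the NF-κB motif in Cxcl2. The AP-1 motif TGANTCA, in 6.75% of promoters, was in none of them. No motif overlapped another, and a match is a run of letters and not a measured binding site.

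Retnla came from few cells. Among the 84 cells, 8 had more than 10 Retnla UMIs (13 to 518 each, up to 8.67% of a cell's UMIs) and together held 99.5% of it, and the next cell had 1. They had 4358 to 13870 UMIs in all, a usual depth for members. The 8 cells shared other genes. Mgl2 was at 3745 CPM in the 8 cells and 389.5 CPM in the other 76, and Folr2 at 1832 CPM in the 8 cells and 182 CPM in the other 76. Clec10a was at 875 CPM in the 8 cells and 157 CPM in the other 76, and Ccl8 at 1459 CPM in the 8 cells and 99.8 CPM in the other 76. Every one of the 8 had UMIs of Mgl2, Folr2, Clec10a and Lyve1, and 7 had Ccl8. Cd36 was nearly missing from them, with 1 UMI in 1 cell against 314 UMIs in 61 of the other 76. Lyve1 was at 1897 CPM in the 8 cells and 1378 CPM in the other 76, and Mrc1 at 2756 CPM in the 8 cells and 3542 CPM in the other 76. The cells were picked by Retnla after the data were seen and come from 1 library, so these values are a description.

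**Figure D4:**
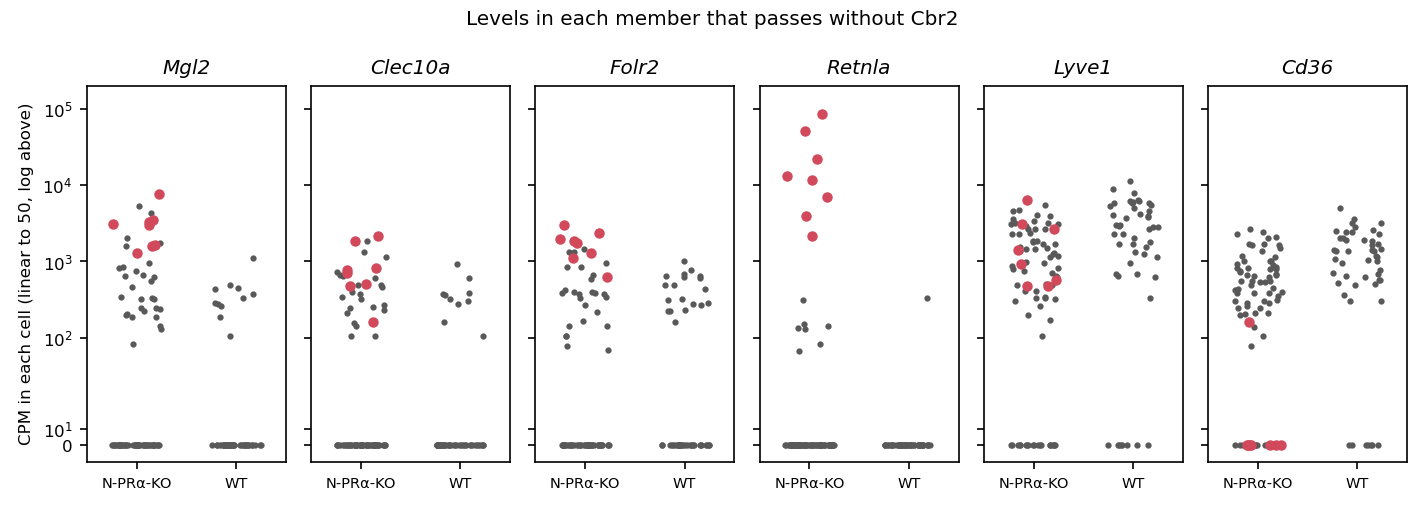
CPM of 6 genes in each of the 84 N-PRα-KO members that pass without Cbr2 and the 49 WT members, each point 1 cell, on an axis that is linear to 50 and logarithmic above. Large points are the 8 N-PRα-KO cells with more than 10 Retnla UMIs: they lie high for Mgl2 and Folr2, and 7 of the 8 are at 0 for Cd36.

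The members with a Mgl2 UMI were set against the others of their library, a split chosen after the data were seen. A Mgl2 UMI was seen in 37 of the 84 N-PRα-KO cells and 11 of 49 WT members. The median depth of cells with and without one was 6482 and 6415 UMIs in the N-PRα-KO library and 4417 and 3360 UMIs in the WT library. Clec10a, the closest relative of Mgl2, was at 466 CPM with and 34.98 CPM without Mgl2 among N-PRα-KO members, and 218 CPM with and 60.8 CPM without Mgl2 among WT members. Folr2 was at 686 CPM with and 76.3 CPM without Mgl2 among N-PRα-KO members, and 334 CPM with and 144 CPM without Mgl2 among WT members. Fcna was at 525 CPM with and 194 CPM without Mgl2 among N-PRα-KO members, and 262 CPM with and 98.9 CPM without Mgl2 among WT members, and F13a1, one of the rule markers, at 2731 CPM with and 1243 CPM without Mgl2 among N-PRα-KO members, and 2979 CPM with and 1285 CPM without Mgl2 among WT members. Without the 2 WT cells that held most of each, the other 9 WT cells with Mgl2 were at 48.8 CPM for both Clec10a and Fcna, at 244 CPM for Folr2 and at 2292 CPM for F13a1. Folr2 and F13a1 were thus higher with Mgl2 in both libraries, whereas in WT members the values of Clec10a and Fcna rest on 13 of 15 and 16 of 18 UMIs from 2 cells. Cd36 was lower in the cells with Mgl2 in both, at 406 CPM with and 655 CPM without Mgl2 among N-PRα-KO members, and 887 CPM with and 1407 CPM without Mgl2 among WT members. The N-PRα-KO cells with Mgl2 included all 8 Retnla-rich cells, which held 1 of their 109 Cd36 UMIs. The Cd36 difference without those 8 cells was not tested. Mrc1 hardly differed, at 3457 CPM with and 3460.1 CPM without Mgl2 among N-PRα-KO members, and 4317 CPM with and 4395 CPM without Mgl2 among WT members. Lyve1 was at 1565 CPM with and 1319.8 CPM without Mgl2 among N-PRα-KO members, and 4636 CPM with and 2814 CPM without Mgl2 among WT members. Lyz2, the lysozyme gene, differed in opposite directions, at 1792 CPM with and 827 CPM without Mgl2 among N-PRα-KO members, and 770.3 CPM with and 1247 CPM without Mgl2 among WT members. The libraries also differed in these cells for Retnla, at 5480.5 CPM with and 15.9 CPM without Mgl2 among N-PRα-KO members, and 29.1 CPM with and 0 CPM without Mgl2 among WT members, and for Ccl8, at 522 CPM with and 6.36 CPM without Mgl2 among N-PRα-KO members, and 0 CPM with and 0 CPM without Mgl2 among WT members. Of the UMIs in N-PRα-KO cells with Mgl2, the 8 Retnla-rich cells held 1469 of 1471 for Retnla and 90 of 140 for Ccl8. One WT cell held 18 of 34 WT Mgl2 UMIs and one 75 of 374 for F13a1, so these WT values rest on few cells. A cell with no Mgl2 UMI at this depth may still express the gene.

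Immediate early and stress genes, which respond quickly when a cell is stimulated, mostly stood lower in N-PRα-KO members. Of those listed, 20 of 23 genes reached 100 CPM, and 2 of these stood higher (0 by at least 2-fold) and 18 lower (8 by at least 2-fold) in N-PRα-KO members, where 17.2% of all genes tested were at least 2-fold lower. The median log2 ratio was -0.81 (-0.48 for the 84 cells, -0.47 with the GC trend removed), against -1.07 for the same genes in microglia-rule cells. Atf3, a stress transcription factor, was at 177 CPM (132 UMIs) in N-PRα-KO members and 694 CPM (139 UMIs) in WT members, a log2 ratio of -1.97 (95% interval -2.33 to -1.62) that was -1.63 for the 84 cells. Egr3, a growth response transcription factor, had 1 UMI in N-PRα-KO and 33 UMIs in WT members, and Egr2, a related factor, 30 UMIs in N-PRα-KO and 39 UMIs in WT members. These counts are out of 746705 UMIs in N-PRα-KO and 200312 in WT members, so equal levels would give more UMIs in N-PRα-KO members. Zfp36, which destabilises cytokine mRNA, was at 1478 CPM in N-PRα-KO and 3459.6 CPM in WT members, a log2 ratio of -1.23 (-0.88 for the 84 cells). Hspa1b, a heat shock protein, had a ratio of -1.46 in members and 0.31 in microglia-rule cells. Fos had -0.80 (-0.07 with the GC trend removed), and Jun changed sides between all members (-0.16) and the 84 cells (0.12). Fosb was higher in N-PRα-KO members, with 0.95. The ratio in members minus that in microglia-rule cells had a median of 0.50 over the listed genes, on the other side of 0.

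The genes highest in N-PRα-KO members after Retnla were of 2 kinds. Cyp2a5, Cyp2g1, Sec14l3, Omp, Gstm1, Wfdc18 and Stoml3 filled 7 of the highest 10 places when all members were taken, and none of them was among the highest 10 of the 84 cells. Most of the rest were also higher in N-PRα-KO microglia-rule cells. Ftl1, the light chain of ferritin, was at 771 CPM (576 UMIs) in N-PRα-KO members and 19.97 CPM (4 UMIs) in WT members, with log2 ratios of 5.27 in members and 5.18 in microglia-rule cells. Cst3, a secreted protease inhibitor, was at 3598 CPM in N-PRα-KO and 265 CPM in WT members, with ratios of 3.77 in members and 3.83 in microglia-rule cells. Cox4i1, a respiratory chain subunit, had 304 UMIs in N-PRα-KO and 3 in WT members, a ratio of 27.2-fold (95% interval 9.21 to 133), and a log2 ratio of 3.58 in microglia-rule cells. Eef2, a translation factor, Ctsd, a lysosomal protease, Lgals1, a galectin, and Tcn2, a vitamin B12 carrier, had ratios from 2.88 to 3.69 in members and from 2.93 to 4.47 in microglia-rule cells. Ptgds, a prostaglandin synthase, had 3.44 in members and 3.23 in microglia-rule cells, and was at 4527 CPM in N-PRα-KO and 860.5 CPM in WT cells outside both rules. The part of that RNA in the members' Ptgds was not tested. Ccl8 completed the highest 10 of the 84 cells. Apoe, a lipid carrier and the most abundant of the listed genes in N-PRα-KO members, was at 7632 CPM (5699 UMIs) in N-PRα-KO members and 2037 CPM (408 UMIs) in WT members, a log2 ratio of 1.91 (95% interval 1.76 to 2.05) that was 2.21 for the 84 cells, with 1.37 in microglia-rule cells and 0.996 in members with the GC trend removed.

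Genes induced by glucocorticoids lay on the higher side. Here 7 of 12 listed genes reached 100 CPM, and 7 of these stood higher (5 by at least 2-fold) and 0 lower (0 by at least 2-fold) in N-PRα-KO members, where 16.2% of all genes tested were at least 2-fold higher. Their median log2 ratio was 1.92 (1.97 for the 84 cells, 1.02 with the GC trend removed), against 1.05 for the same genes in microglia-rule cells. The 12 listed genes summed to 2898 CPM in N-PRα-KO and 978 CPM in WT members. In cells outside both macrophage rules they summed to 4084 CPM on the N-PRα-KO side and 779 CPM on the WT side. The difference was thus not particular to members, and the part of free RNA in it was not tested. Tsc22d3, known as Gilz, had 78 UMIs in N-PRα-KO members (104 CPM) and 2 in WT members (9.98 CPM), a ratio of 10.5-fold (95% interval 2.8 to 87.9), while its log2 ratio was 0.34 in microglia-rule cells. Fkbp5, a co-chaperone of the glucocorticoid receptor, had 97 UMIs in N-PRα-KO and 2 in WT members, a ratio of 13.01-fold (95% interval 3.51 to 109). Txnip, a thioredoxin inhibitor, was at 611 CPM in N-PRα-KO and 189.7 CPM in WT members. Of the metallothioneins, Mt1 had log2 ratios of 1.92 in members and 1.77 in microglia-rule cells, and Mt2 of 2.39 in members and 2.19 in microglia-rule cells. Per1, a clock gene, had 0.82 and -0.28 with the GC trend removed, and Cdkn1a, a brake on the cell cycle, 0.09 and -1.03, so both changed sides.

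Lysosomal genes leaned to the higher side. Among them 19 of 20 listed genes reached 100 CPM, and 12 of these stood higher (8 by at least 2-fold) and 7 lower (1 by at least 2-fold) in N-PRα-KO members, where 16.2% of all genes tested were at least 2-fold higher. The list had a median of 0.49 (0.73 for the 84 cells, 0.39 with the GC trend removed), against 0.21 for the same genes in microglia-rule cells. Among the highest log2 ratios were 3.05 for Ctsd, 1.62 for Ctsz and 1.41 for Psap (the saposin precursor). Ctsc, a protease that activates other proteases, was the 1 gene at least 2-fold lower, at 850.4 CPM in N-PRα-KO and 2217 CPM in WT members. Ctsb, the most abundant of them, was at 4229 CPM in N-PRα-KO and 5377 CPM in WT members. Grn, a precursor of lysosomal granulins, was at 2478 CPM in N-PRα-KO and 539 CPM in WT members, a log2 ratio of 2.20 (2.53 for the 84 cells), and 2.36 in microglia-rule cells. Complement and Fc receptor genes were divided. The subunits of C1q changed sides with the GC trend removed: C1qa had 1.48 and -0.18 with it removed, C1qb 0.93 and -0.14, and C1qc 0.64 and -0.32. Of the receptors for the small complement fragments, C3ar1 had -1.37 and C5ar1 -3.06. C4b, a complement component, had 107 UMIs in N-PRα-KO and none in WT members, at least 9.57-fold higher against 3 UMIs. The genes shared with microglia had a median of 0.49 (0.84 for the 84 cells, -0.28 with the GC trend removed), against 0.36 for the same genes in microglia-rule cells. Cyba, a subunit of the phagocyte oxidase, had 1.41, and -0.35 with the GC trend removed. The whole complement and Fc receptor list of 12 genes had a median of 0.49 (0.81 for the 84 cells, -0.18 with the GC trend removed), against 0.39 for the same genes in microglia-rule cells.

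Of 8 growth factor genes tested, 6 were lower, where 61.1% of all genes tested were, with a median of -0.69 (-0.42 for the 84 cells, -0.49 with the GC trend removed), against -0.28 for the same genes in microglia-rule cells. Hbegf, an EGF-family ligand, had 4 UMIs in N-PRα-KO and 21 UMIs in WT members, and Igfbp4, an IGF-binding protein, was at 791 CPM in N-PRα-KO and 1403 CPM in WT members. Igf1 was at 588 CPM in N-PRα-KO and 639 CPM in WT members, a log2 ratio of -0.12 that was 0.22 for the 84 cells. Of the receptors, 12 were tested, with a median of -0.10 (0.17 for the 84 cells, 0.22 with the GC trend removed), against 0.07 for the same genes in microglia-rule cells. Axl, a receptor for the uptake of dying cells, had 81 UMIs in N-PRα-KO and 2 in WT members, a ratio of 10.9-fold (95% interval 2.91 to 91.2). Cd14, the co-receptor for bacterial lipopolysaccharide, was lower at -1.61, as were the chemokine receptor Ccr1 at -1.44 and the TGF-β receptor Tgfbr2 at -1.27. Genes of iron and haem handling had a median of 0.58 (0.73 for the 84 cells, 0.29 with the GC trend removed), against 0.43 for the same genes in microglia-rule cells, over 10 genes. Trf, the iron carrier transferrin, was higher (1.36) and Tfrc, its receptor, lower (-1.34). The haem oxygenase Hmox1 and the iron exporter Slc40a1, both active in macrophages that clear haemoglobin, stood near the median of all genes, Hmox1 at -0.18 (0.12 for the 84 cells) and Slc40a1 at -0.42.

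Lipid genes also stood on both sides, with a median of 0.13 (0.50 for the 84 cells, 0.83 with the GC trend removed), against -0.55 for the same genes in microglia-rule cells, over 7 genes. Pltp, the phospholipid transfer protein, was at 461 CPM in N-PRα-KO and 59.9 CPM in WT members, with 3.23 in microglia-rule cells. Lpl, lipoprotein lipase, was at 21.4 CPM in N-PRα-KO and 149.8 CPM in WT members, and Plin2, the coat protein of lipid droplets, at 95.1 CPM in N-PRα-KO and 245 CPM in WT members. Of 17 transcription factors tested, 13 were lower, where 61.1% of all genes tested were, with a median of -0.50 (-0.29 for the 84 cells, 0.04 with the GC trend removed), against -0.64 for the same genes in microglia-rule cells. Maf, a factor of resident macrophages and the most abundant on the list, was at 2547 CPM in N-PRα-KO and 3964 CPM in WT members. Klf4, a factor of anti-inflammatory macrophage states, was at 485 CPM in N-PRα-KO and 179.7 CPM in WT members, a log2 ratio of 1.43 against -0.87 in microglia-rule cells. Spi1, which encodes PU.1, the factor that both kinds of macrophage need, was at 181 CPM in N-PRα-KO and 369 CPM in WT members.

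Class I antigen presentation genes had a median of -0.01 (0.27 for the 84 cells, 0.30 with the GC trend removed), against -0.25 for the same genes in microglia-rule cells, over 5 genes. Psmb8, an immunoproteasome subunit, had 91 UMIs in N-PRα-KO and 3 in WT members, a ratio of 8.14-fold (95% interval 2.7 to 40.2), and Tapbp, which loads peptides onto class I molecules, was at 179 CPM in N-PRα-KO and 44.9 CPM in WT members. Of the class I chains, B2m, the light chain, was at 2279 CPM in N-PRα-KO and 2856 CPM in WT members, a log2 ratio of -0.33 that was 0.30 with the GC trend removed, and H2-K1, a heavy chain, at 395 CPM in N-PRα-KO and 584 CPM in WT members. Few interferon-induced genes were seen: 4 of 17 reached 100 CPM, with a median of 0.69 (1.24 for the 84 cells, -0.28 with the GC trend removed), against 1.71 for the same genes in microglia-rule cells. Of the antiviral membrane proteins, Ifitm2 had 1.18 and Ifitm3 1.17, while Bst2, which tethers viruses, had 0.21 and Ifi27l2a -0.31. Damage-associated genes, known from microglia near lesions, had a median of -0.02 (0.00 for the 84 cells, 0.19 with the GC trend removed), against 0.02 for the same genes in microglia-rule cells, over 8 genes. Of that list, Spp1 (osteopontin) came from few cells, 37 of 44 UMIs of the 84 cells from 1 cell, and Gpnmb had 12 of its 13 WT UMIs in 1 cell. Matrix and protease genes had a median of 0.61 (0.88 for the 84 cells, 0.26 with the GC trend removed), against -0.17 for the same genes in microglia-rule cells, over 6 genes, among which Timp2, a protease inhibitor, was at 564 CPM in N-PRα-KO and 145 CPM in WT members and Adam17, the sheddase that releases Tnf, at 111 CPM in N-PRα-KO and 279.6 CPM in WT members. Adhesion genes had a median of -0.54 (-0.21 for the 84 cells, 0.07 with the GC trend removed), against 0.23 for the same genes in microglia-rule cells, over 5 genes, in which the integrin chains Itga4, Itgav, Itgam and Itga6 ran from -0.73 to -0.15. Genes of glycolysis had one of 1.005 (0.58 for the 84 cells, 0.35 with the GC trend removed), against 1.08 for the same genes in microglia-rule cells, over 7 genes, with Gapdh at 620.1 CPM in N-PRα-KO and 145 CPM in WT members. The other glycolytic enzymes named there were Gpi1 at 165 CPM in N-PRα-KO and 24.96 CPM in WT members, Aldoa at 380.3 CPM in N-PRα-KO and 119.8 CPM in WT members and Pkm at 250.4 CPM in N-PRα-KO and 125 CPM in WT members, and Pkm alone of these changed sides with the GC trend removed, at -0.15.

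**Figure D5:**
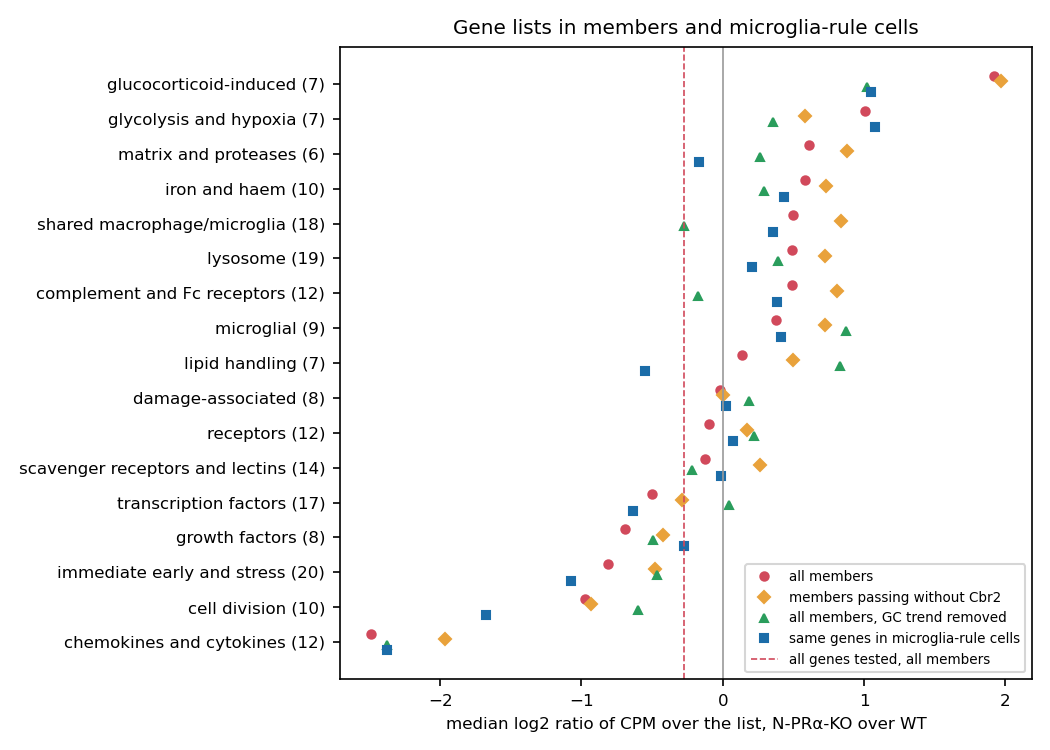
Median log2 ratio of CPM, N-PRα-KO over WT, for each gene list with 6 or more genes at 100 CPM, the number of genes in parentheses, for all members, members passing without Cbr2, all members with the GC trend removed, and the same genes in microglia-rule cells. The dashed line is the median of all genes tested in members (-0.28): chemokines and cytokines lie furthest left of it, at -2.49, and glucocorticoid-induced genes furthest right, at 1.92.

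Cell division transcripts were found in members of both libraries. Of that list, 10 of 18 genes reached 100 CPM, and 1 of these stood higher (1 by at least 2-fold) and 9 lower (4 by at least 2-fold) in N-PRα-KO members, where 61.1% of all genes tested were lower and 17.2% at least 2-fold lower. The median log2 ratio was -0.97 (-0.93 for the 84 cells, -0.60 with the GC trend removed), against -1.67 for the same genes in microglia-rule cells, and the ratio minus that in microglia-rule cells had a median of 0.74, on the other side of 0. Mki67, a marker of cycling cells, was at 210.3 CPM (157 UMIs) in N-PRα-KO members and 524 CPM (105 UMIs) in WT members, and Top2a, which untangles DNA, at 189 CPM in N-PRα-KO and 489 CPM in WT members. Cdk1, the kinase that starts mitosis, was at 76.3 CPM in N-PRα-KO and 315 CPM in WT members, and H2afz, a histone variant, at 513 CPM in N-PRα-KO and 1098 CPM in WT members, so these 4 were all lower in N-PRα-KO members. With cells thinned to 1500 UMIs and at least 3 UMIs required of 12 division genes, the expected number was 11 of the 84 N-PRα-KO cells that pass without Cbr2 (13.1%, 95% interval 6.72 to 22.2%) and 12 of 42 WT members (28.6%, 15.7 to 44.6%). The 2 intervals overlapped. In microglia-rule cells the share was 5.06% on the N-PRα-KO side and 20% on the WT side, and in cells outside both rules 4.31% on the N-PRα-KO side and 15.8% on the WT side. Without thinning, it was 20.2% of the 84 cells and 34.7% of WT members, and 4 N-PRα-KO and 4 WT cells lay within 1 UMI of the limit. A limit of 3 UMIs marks a range of one score and not a cell type.

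The N-PRα-KO members held cells with Y-linked transcripts and the WT members did not. Of the 84 cells, 34 had Xist UMIs and no UMI of 4 genes of the Y chromosome (Uty, Kdm5d, Ddx3y and Eif2s3y), 23 had Y-linked UMIs and no Xist, 16 had both and 11 neither. None of the 16 had more than 2 UMIs of each. Of 49 WT members, 41 had Xist UMIs and none a Y-linked UMI. The 8 Retnla-rich cells all had Xist UMIs, and 1 of them a Y-linked UMI. The part of sex in the ratios over all members was not tested.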

How the data were processed

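Transcripts were counted in single cells of 2 libraries, 1 per genotype, each from PDGFRα-sorted cells of mouse cortex and meninges. The deposited values are counts of unique molecules (UMIs) per gene and cell after the pipeline's error correction; per the file headers, the N-PRα-KO file was written by BD Rhapsody WTA Analysis Pipeline 1.10 and the WT file by version 1.10.1, and both used GRCm38 and GENCODE M19. An aligner was not given in the sources used here.

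Cells under 300 genes or over 25% mitochondrial UMIs were dropped. The members and gene lists were chosen with earlier results of these data known. No clustering was done and doublets were not removed: Scrublet, run through scanpy 1.11.5, called 10 of 4196 cells in the N-PRα-KO library (0.238%), 174 of 10069 in the WT library (1.73%), and 0 members; the N-PRα-KO rate is too low to count as a working call.

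UMIs of the members were summed per library and scaled to a total of 1000000 (CPM), with exact Poisson 95% intervals; log2 ratios have exact conditional intervals, and shares have Clopper-Pearson intervals. With 1 library per genotype these cover counting error only. Genes that reached 100 CPM on at least 1 side were compared. A count of 0 allows up to 3 counts. Shares of cells with a UMI were computed as the expected number after thinning each cell to 1500 UMIs. GC content was taken over the last 500 bases of each gene's longest protein-coding transcript, or of its longest transcript where none was coding. The transcripts were from a later GENCODE release than the one used for the counts. The GC trend was fitted over the tested genes on this content and subtracted. Computation used numpy 2.4.6, scipy 1.17.1, pandas 2.3.3, statsmodels 0.14.6 and matplotlib 3.10.9, and the ratios were tested on simulated counts.

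Genes were named by a fixed rule: all rule markers; the listed scavenger, class II and microglial genes at 100 CPM; the 10 highest and 10 lowest ratios between libraries at 200 CPM or more, leaving out genes over 3 times higher in other cells; the same against microglia-rule cells; and up to 4 genes per list by size of ratio, some of which are not reported here, while those marking other cell types are mostly given as sums. Left out of the rankings by ratio were mitochondrial, ribosomal protein and haemoglobin genes, and genes with provisional names such as Gm and Rik. Xist, Tsix and Y-linked genes were left out of them as well. Other genes named for a known role were chosen after their values were seen. The alternatives tried were other marker, mitochondrial, gene and depth limits, doublet removal, other scalings, floors and levels, and GC and microglial corrections.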

Additional observations from a re-analysis of the deposited data

How the results depend on the processing

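No paired analysis was possible because each genotype had 1 library, and for the same reason no library could be left out. Of the values that answer a comparison, 168 stayed within their spread across the alternatives and 25 went beyond it, and 7 of them all stood on the other side of 0; for named genes and the remaining lists the numbers were 922, 176 and 70. The median of scavenger receptors and lectins, -0.13 as reported, was on the other side of 0 in 4 of these, at 0.41 with at most 15% mitochondrial UMIs, 0.27 without the 17 cells that pass only with Cbr2, 0.000387 with CPM outside mitochondrial and ribosomal protein genes and 0.26 after the ratio in microglia-rule cells was subtracted. The cause was not tested for any of them. A value counted as within its spread was not always unchanged. The 168 include the number of N-PRα-KO members, 101 as reported and 70 with at most 15% mitochondrial UMIs. Their share of filtered cells was 2.41% as reported and 2.83% at that limit. With at most 15% mitochondrial UMIs, the median log2 ratio, N-PRα-KO over WT, was -1.77 for chemokines and cytokines, 0.91 for lysosomal genes and -0.43 for immediate early genes. Without the 17 N-PRα-KO cells that pass only with Cbr2, an alternative chosen after seeing the data, it was -1.97 for chemokines and cytokines and -0.48 for immediate early genes. Raising the level to 300 CPM left 112 genes at least 2-fold higher and 133 lower in N-PRα-KO members, and medians of -1.05 for scavenger receptors and lectins and -3.26 for chemokines and cytokines; fewer genes are tested at that level. Against microglia-rule cells it left 36 genes higher and 53 lower in members. CPM outside mitochondrial and ribosomal protein genes gave -1.999 for chemokines and cytokines. With the GC trend removed, 210 genes were at least 2-fold lower, the immediate early median was -0.47 and the median of all genes -0.01, against -0.28 as reported.

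Subtracting the ratio of the same gene in microglia-rule cells left 137 genes at least 2-fold higher and 101 lower, with the median of all genes at -0.08. The medians became 0.28 for chemokines and cytokines, 0.50 for immediate early genes, 0.74 for cell division genes and -0.072 for glycolysis and hypoxia genes, all 4 on the other side of 0, and 0.22 for lysosomal genes. Called genes on the other side of 0 were Atf3 (1.02), C5ar1 (0.27), Ccl12 (0.22), Ccl2 (0.60), Ccl3 (0.33), Ccl7 (2.60), Cxcl2 (1.37), Dab2 (0.15), Ifrd1 (0.56), Il1b (3.06), Nfkbiz (0.78) and Zfp36 (0.77), all lower in N-PRα-KO members before the subtraction, and Cbr2 (-0.95), Cst3 (-0.065), Ctsd (-0.31), Grn (-0.16), Lgals1 (-1.44) and Tcn2 (-0.98), all higher before it. Il1b and Ccl7 rest there on few UMIs in N-PRα-KO microglia-rule cells (2 for Il1b and 4 for Ccl7). Without thinning, the share with a UMI was 66.3% for Lyve1, 46.5% for Cd163 and 22.8% for Ccl2 in N-PRα-KO members and 38.8% for Cd163 in WT members. Depth limits the WT side most: 1 UMI was 4.99 CPM in WT members, so genes under 14.98 CPM could not be told from 0 there.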

Other observations

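Secreted products were also among the genes far above microglia-rule cells in both libraries; these were chosen after their values were seen. Bmp2 was at 119 CPM in N-PRα-KO members against 4.36 CPM in N-PRα-KO microglia-rule cells, and 704 CPM in WT members against 5.69 CPM in WT microglia-rule cells. Cfp, which encodes properdin, a complement stabiliser, was at 151 CPM in N-PRα-KO members against 4.65 CPM in N-PRα-KO microglia-rule cells, and 109.8 CPM in WT members against 0.949 CPM in WT microglia-rule cells. Tgfbi, a TGF-β-induced matrix protein, was at 454 CPM in N-PRα-KO members against 54.3 CPM in N-PRα-KO microglia-rule cells, and 235 CPM in WT members against 39.8 CPM in WT microglia-rule cells. Plau was at 181 CPM in N-PRα-KO members against 33.1 CPM in N-PRα-KO microglia-rule cells, and 1153 CPM in WT members against 163 CPM in WT microglia-rule cells. For all 4 the members stood above the microglia-rule cells of their own library, while Bmp2 and Plau were lower and Cfp and Tgfbi higher in N-PRα-KO than in WT members. Lyz2, which encodes lysozyme, was at 999 CPM in N-PRα-KO members against 53.2 CPM in N-PRα-KO microglia-rule cells, and 1083 CPM in WT members against 189 CPM in WT microglia-rule cells.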
